A study of Canis lupus familiaris with 48 samples.

Results

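Gene expression was compared between early and late passages of MDCK I cells kept in control medium, across all genes of the dog genome. MDCK I is an established epithelial line from the kidney of a dog. The members are the 10 control libraries of 5 early passages (1, 4, 5, 7 and 8) and 5 late passages (13, 14, 16, 17 and 19), out of 48 libraries in the series. They were chosen by the passage number in the labels and by no measured value, and the control libraries of passages 10 and 11 lie between the groups and were left out of the comparison. In all 10 cultures the cells were grown for 144 h in uncoated plates, in DMEM/F-12 with serum, and were held in regular medium of 300 mOsm. The series was made to follow membrane transporters under hyperosmotic stress. Its other libraries come from the same 12 passage numbers in medium brought to 500 mOsm for the last 24 h with NaCl, raffinose or urea, 12 libraries each, and these serve here only as further readings of the early and late passages.

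Passage number counts how often cells of a line have been detached and replated. During passaging, cells that divide faster or detach more readily can take up more of the culture, and chromosome numbers can drift, so laboratories commonly limit work to a window of passages. MDCK I cells form a tight monolayer and are used as a model of the distal nephron. The labels state neither from which stock the passages are counted nor whether they form 1 continuous lineage. Each passage is 1 library per medium, so the replicates of a stage are passages of the same line, and each p-value reflects only how far these passages vary, which may be partly technical.

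The early libraries held 6.082 to 13.28 megareads counted over genes (M, median 9.846 M) and the late libraries 8.377 to 16.06 M (median 13.26 M). Total reads were 9.66 ± 2.6 M early and 12.61 ± 3.27 M late (SD, n = 5 each; exact permutation p = 0.183, two-sided). Of 32704 genes, 20989 had a read in these 10 libraries, and 12143 passed the filter on low counts and were tested. The genes carry Ensembl identifiers, and 0 of them could be paired with a symbol, so markers of kidney epithelium were not checked and no pathway is named. Reads were counted without regard to strand, so overlapping genes on opposite strands cannot be told apart where their exons coincide. Levels are counts per M reads (CPM) and changes are log2 fold changes, late minus early, ± SE.

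No gene passed the test in control medium. At an adjusted p under 0.05, edgeR's quasi-likelihood test called 0 of 12143 genes (0%), and the lowest adjusted p was 0.0511. The changes were small: the median size of a log2 fold change was 0.14, and 42 genes differed by at least 2-fold with an unadjusted p under 0.05. At that unadjusted threshold stood 2088 genes (17.2% of those tested), 1127 higher late and 961 lower late. At an adjusted p under 0.10, 172 genes (1.42%) were counted, 103 higher and 69 lower. The absence of calls depended on the test: on the same libraries DESeq2 called 356 of 11510 genes with an adjusted p (3.09%, 186 higher and 170 lower), while limma-voom called 0. Leaving out a library also mattered, since 45 genes (41 higher and 4 lower) were called by edgeR without late passage 16, 3 without early passage 4, 1 without late passage 14 and 0 without any of the other 7 libraries.

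The same contrast in the hyperosmotic media had fewer genes of low p. With 5 early and 5 late libraries each, the edgeR test called 0 genes (0%) in NaCl, in raffinose and in urea. An unadjusted p under 0.05 was reached by 514 genes in NaCl (4.23%), 736 in raffinose (6.06%) and 773 in urea (6.37%). Genes of at least 2-fold change at that p were not fewer, with 44 in NaCl, 47 in raffinose and 85 in urea, against 42 in control. The common coefficient of variation was 16.5% in NaCl, 18.4% in raffinose and 16.5% in urea, against 14.5% in control. The lowest adjusted p was 0.921 in NaCl, 0.151 in raffinose and 0.348 in urea. The difference between each hyperosmotic medium and control in the late against early contrast was tested itself, as an interaction over 40 libraries in edgeR, and 0 genes passed in any of the 3 media. In these interaction tests 453 genes in NaCl, 788 in raffinose and 280 in urea had an unadjusted p under 0.05. With passage as a replicate block the counts were 0 called, and 1133, 1636 and 812 at an unadjusted p under 0.05. No gene was therefore shown to differ between media in how it varied with passage.

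**Figure D1:**
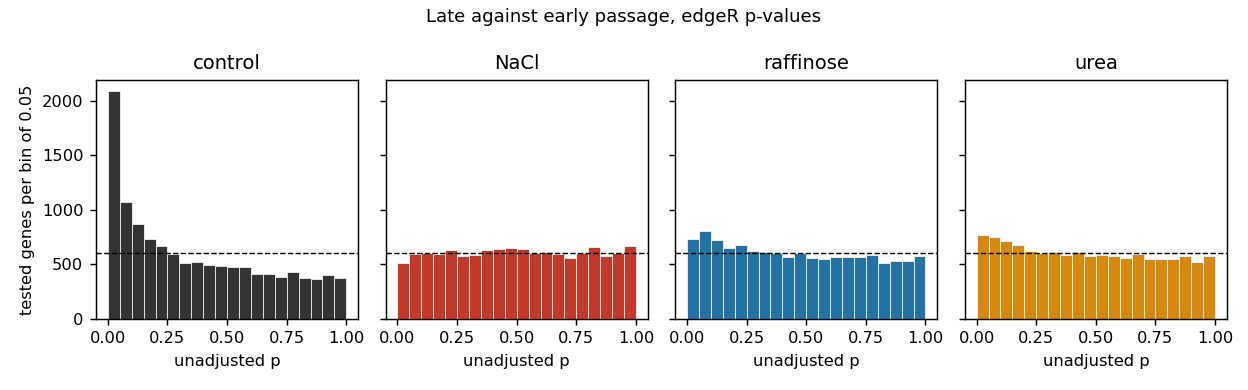
Number of tested genes (vertical axis) in each bin of the unadjusted edgeR p-value (horizontal axis, bins of 0.05) for late against early passage in each of the 4 media, 5 libraries a stage. The dashed line is an equal number in every bin. In control medium the first bin holds 2088 genes, against 514 in NaCl, 736 in raffinose and 773 in urea.

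The gene of lowest p was ENSCAFG00000032544, which was higher late and did not pass the test. It lies on chromosome 1 from 99414615 to 99415331 on the plus strand (CanFam3.1), and has 1 exon of 717 bases. At early passages it stood at 1.01, 1.88, 2.25, 1.55 and 2.5 CPM (passages 1, 4, 5, 7 and 8), and at late passages at 6.15, 4.39, 11, 7.28 and 5.89 CPM (passages 13, 14, 16, 17 and 19). Every late library was above every early library. The means were 1.84 ± 0.59 and 6.95 ± 2.5 CPM (SD, n = 5 each), a log2 fold change of 1.94 ± 0.28 with an edgeR adjusted p of 0.0511.

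The gene was also separated in the other media. In NaCl it was at 0.768 to 3.76 CPM early and 3.77 to 8.24 late, in raffinose at 0.602 to 2.07 and 2.76 to 9.91, and in urea at 0.663 to 2.26 and 3.75 to 6.97. The groups did not overlap in any of the 3, although in NaCl the highest early and the lowest late library nearly touched. The log2 fold changes were 1.78 ± 0.37 in NaCl, 2.45 ± 0.41 in raffinose and 1.63 ± 0.28 in urea, with edgeR adjusted p of 0.921, 0.151 and 0.348. It was the only gene whose early and late libraries were apart in the same direction in all 4 media. When the 4 libraries of a passage were summed, it was the only gene called by edgeR, with an adjusted p of 0.0375. That sum includes the control libraries by which the gene was picked; with only the 3 solute libraries of a passage summed, its log2 fold change was 1.85 with an edgeR adjusted p of 0.142, and no gene was called. In the passages between the groups ENSCAFG00000032544 stood in control medium at 3.32 CPM (passage 10) and 6.36 CPM (passage 11), the former between the stages and the latter within the late range.

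Its position limits what can be read from it. Of its 717 exonic bases, 340 are also exonic in ENSCAFG00000002354, a gene of 19 exons on the opposite strand, and 377 are not. That neighbour was far more abundant and was level between the stages, at 430 ± 23 CPM early and 428 ± 25 late (SD, n = 5 each; log2 fold change -0.0083, edgeR adjusted p = 0.969). In control medium the single-exon gene rested on 10 to 25 reads in each early library and 37 to 113 in each late library.

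**Figure D2:**
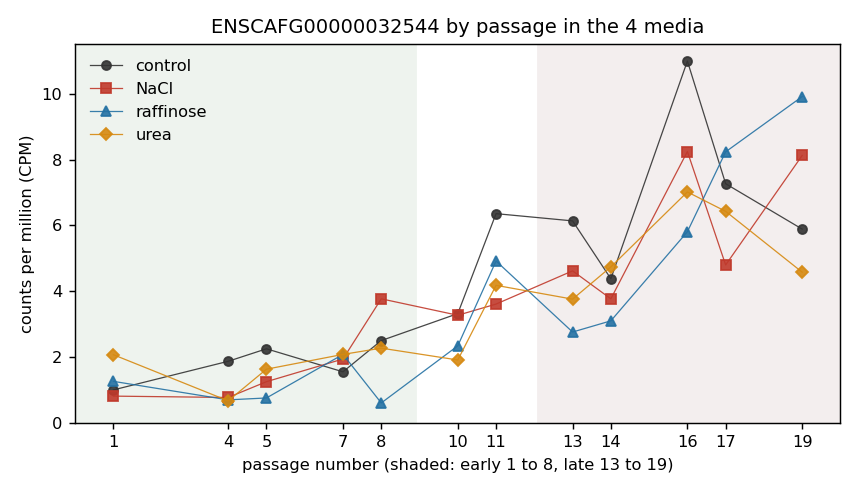
Level of ENSCAFG00000032544 in CPM (vertical axis, from 0) against passage number (horizontal axis) in the 4 media, each point 1 library and the lines joining points of a medium. In control medium the early libraries lie between 1.01 and 2.5 CPM and the late ones between 4.39 and 11 CPM, and the stages are apart in every medium.

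The other genes of lowest p were abundant, differed by less than 2-fold and did not pass either. ENSCAFG00000018870, on chromosome X from 105115881 to 105153792 with 10 exons, had the next lowest p among genes higher late. Its early libraries held 52.1, 54.9, 48, 51 and 54.6 CPM and its late libraries 81.7, 83.7, 64.9, 70.3 and 73.8 CPM, in the order of the passages. The late values were all above the early ones, with passages 13 and 14 the highest. The means were 52.1 ± 2.8 and 74.9 ± 7.9 CPM (SD, n = 5 each), a log2 fold change of 0.52 ± 0.09 with an edgeR adjusted p of 0.0691. The passages between did not follow that order: passage 10 was at 70.7 CPM and passage 11 at 39.7 CPM, below every early library.

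ENSCAFG00000015624, on chromosome 30 from 17609902 to 17651295 with 16 exons, had the lowest p among genes lower late. It was at 74.2, 62.7, 71.2, 79.2 and 75.4 CPM early and at 52.8, 52.3, 54, 50.6 and 50.2 CPM late. The late libraries lay close together, from 50.2 to 54 CPM, and below every early library. The log2 fold change was -0.48 ± 0.08 (edgeR adjusted p = 0.0691). ENSCAFG00000019810, on chromosome 9 from 50105212 to 50144052 with 23 exons, was at 123, 125, 141, 137 and 125 CPM early and at 93.5, 88.7, 104, 105 and 93.3 CPM late. Its groups did not overlap, with a log2 fold change of -0.43 ± 0.08 (edgeR adjusted p = 0.0691). At passages 10 and 11 both genes were nearer the early libraries, at 65.6 and 65.4 CPM for the former and 119 and 122 CPM for the latter.

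In the other media the changes of these 3 genes were smaller. The genes were picked for their low p in control, so a smaller change elsewhere is no test of a difference between media. For the gene on chromosome X the log2 fold change was 0.20 ± 0.12 in NaCl, 0.29 ± 0.16 in raffinose and 0.08 ± 0.13 in urea. The gene on chromosome 30 had -0.32 ± 0.13, -0.12 ± 0.15 and -0.35 ± 0.14 in the same order, and the gene on chromosome 9 had -0.07 ± 0.10, -0.23 ± 0.12 and 0.02 ± 0.11. The early and late libraries overlapped in all 9 of these cases, and edgeR's adjusted p was 0.756 or higher.

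**Figure D3:**
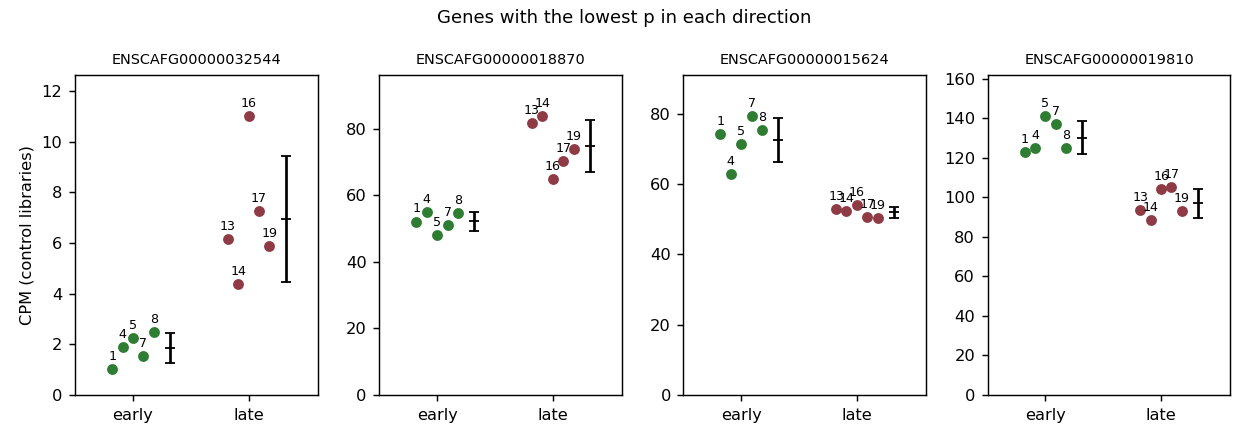
Levels in CPM (vertical axes, from 0) of the genes of lowest p in each direction, in the early and late control libraries; each point is 1 library with its passage number, and the bars beside them show the mean and SD (n = 5). The stages are apart for all of them, from 1.84 to 6.95 CPM for ENSCAFG00000032544 and from 72.5 to 52 CPM for ENSCAFG00000015624.

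Further genes vary between passages without dividing early from late. A gene of 30 exons on chromosome 27 (904661 to 926708), known from an earlier look at these data to vary with passage, was at 12.6, 58.8, 17.2, 21.4 and 19.2 CPM early and 7.45, 65.7, 104, 87.6 and 91.6 CPM late. The highest early library was passage 4 and the lowest of all 10 was late passage 13, so the groups overlapped. Its log2 fold change of 1.43 ± 0.51 (edgeR adjusted p = 0.181) sat beside 1.54 ± 0.49 in NaCl, 1.41 ± 0.42 in raffinose and 1.58 ± 0.49 in urea. The early passages reached 147 CPM in NaCl, 155 in raffinose and 71.1 in urea, and the late ones went down to 25.9, 36.1 and 13 CPM, so the groups overlapped there as well.

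A gene of 26 exons on chromosome 3 (64230065 to 64362347), known in the same way, was at 29.7, 7.36, 16.7, 14.5 and 13 CPM early and 11, 8.07, 7.23, 4.88 and 5.09 CPM late. All late libraries but passages 13 and 14 were below every early one, and early passage 4 lay among the late values. The log2 fold change was -1.16 ± 0.31 (edgeR adjusted p = 0.109), with -1.19 ± 0.39 in NaCl, -1.34 ± 0.36 in raffinose and -1.25 ± 0.51 in urea. A gene of 52 exons on chromosome 27 (13280495 to 13420864) was at 10.9, 1.35, 1.69, 3.82 and 2 CPM early and 2.94, 2.37, 1.95, 1.58 and 0.798 CPM late. Its log2 fold change of -1.06 ± 0.52 (edgeR adjusted p = 0.313) rested mainly on early passage 1: it was -0.21 without that library, -0.84 without late passage 19 and 0.00817 without both. In the other media it was -1.11 ± 0.57 in NaCl, -1.44 ± 0.61 in raffinose and -1.83 ± 0.73 in urea, and the groups overlapped in each.

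Over all genes, the early and late control libraries did not overlap for 447 of 12143 (3.68%), of which 215 were higher late (1.77%) and 232 lower late (1.91%). The corresponding share was 0.469% in NaCl (57 genes), 0.832% in raffinose (101 genes) and 0.791% in urea (96 genes). The 215 genes higher late had a median log2 fold change of 0.38 and a median early level of 27.2 CPM. The 232 genes lower late had a median of -0.31 and a median early level of 81.5 CPM, against 31.7 CPM over all tested genes.

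The genes set apart in control medium were then read in the other media, whose libraries had no part in choosing them but share the passage numbers. Of the 215 genes higher late, 159 (74%) had a positive change in NaCl, 151 (70.2%) in raffinose and 173 (80.5%) in urea, against 50.8%, 51.8% and 50.6% of all tested genes. Of the 232 genes lower late, 63 (27.2%), 93 (40.1%) and 44 (19%) had a positive change. The sizes were far smaller there: the genes higher late in control had median log2 fold changes of 0.09 in NaCl, 0.11 in raffinose and 0.09 in urea, and the genes lower late had -0.07, -0.03 and -0.12. The size in control comes from the libraries on which the genes were chosen and is no test. The libraries of a passage also vary together. After removal of the mean of each medium and stage, the 60 pairs of libraries of the same passage had a mean correlation of 0.3. The 720 other pairs had -0.0523, a value that removing the means pulls below 0 by construction.

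Some of these genes were apart in another medium as well. Of the 215 genes higher late in control, 2 (0.93%) were apart and higher late in NaCl, 6 (2.79%) in raffinose and 6 (2.79%) in urea, against 0.231%, 0.436% and 0.453% of all tested genes. Of the 232 genes lower late, 2 (0.862%), 5 (2.16%) and 4 (1.72%) were apart and lower late, against 0.239%, 0.395% and 0.338%. Together with control, 11 genes were higher late and 10 lower late in at least 1 other medium, and 1 gene was apart in the opposite direction. Apart from the gene on chromosome 1, 1 gene higher and 1 lower were separated in control and at least 2 others; both were singled out after their values were seen. The former, of 7 exons on chromosome 6 (38966854 to 38968703), was at 340, 438, 344, 328 and 337 CPM early and 663, 481, 619, 498 and 885 CPM late. Its log2 fold change was 0.82 ± 0.15 in control (edgeR adjusted p = 0.0691), 0.71 in NaCl, 0.77 in raffinose and 0.77 in urea. It was apart in all media but NaCl, where early libraries reached 338 CPM and late ones went down to 279 CPM. It lies within the span of a larger gene model on the same strand, with which it shares 0 exonic bases.

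The latter, of 3 exons on chromosome 4 (21338907 to 21357830), was at 53.7, 44.1, 51.5, 48.3 and 46.1 CPM early and 38.8, 36.1, 42, 36.1 and 41.5 CPM late. Its log2 fold change was -0.32 ± 0.09 in control (edgeR adjusted p = 0.11), -0.36 in NaCl, -0.46 in raffinose and -0.13 in urea. The stages were apart in all media but urea, where the means were 33.8 ± 3 and 30.9 ± 7.5 CPM (SD, n = 5 each).

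The passages left out of the comparison differed from each other. On a scale where 0 is the early mean and 1 the late mean of a gene, passage 10 had a median of 0.853 over the 215 genes higher late and 0.299 over the 232 genes lower late. Passage 11 had medians of 0.188 and 0.128. By these medians passage 11 lay near the early mean for both sets, and passage 10 near the late mean for the genes higher late. Single genes scattered widely. At passage 10, 89 of the 215 genes were beyond the late mean and 28 beyond the early mean. Of the 232 genes, 41 were beyond the late mean and 84 beyond the early mean there. Of the 215 genes, 155 were nearer the late mean or beyond it at passage 10, and 57 at passage 11.

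The share of genes of low p was similar in every exon-number group, while the split into higher and lower was not. An unadjusted p under 0.05 was reached by 17.6% of genes of 1 exon, 17.1% of those of 2 to 5 exons, 17% of those of 6 to 15 and 17.5% of those of 16 or more, against 17.2% of all tested genes. Of all tested genes, 9.28% were higher and 7.91% lower late at this p, and 1.77% higher and 1.91% lower did not overlap. Among 2844 tested genes of 16 or more exons, 390 were lower and 108 higher at an unadjusted p under 0.05, and the groups did not overlap for 95 lower (3.34%) and 13 higher (0.457%). These were 13.7% lower and 3.8% higher at the unadjusted p. Among 3133 genes of 2 to 5 exons, 142 were lower and 393 higher, and 35 lower (1.12%) and 72 higher (2.3%) did not overlap. The median log2 fold change was -0.05 for the former and 0.06 for the latter. The 800 genes of 1 exon had a median of 0.05, with 86 higher and 55 lower at the unadjusted p but 12 higher and 21 lower not overlapping, and the 5366 genes of 6 to 15 exons a median of 0.01.

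Over libraries this difference was not larger than the spread between passages. For genes of 16 or more exons the median deviation of a library, in log2 CPM from the genes' own means, was 0.0173, -0.0147, -0.0191, 0.0655 and 0.0926 at the early passages and -0.0569, -0.0179, 0.0398, 0.0308 and -0.116 at the late ones. Early passages 7 and 8 were the highest and late passage 19 the lowest, and the groups overlapped. The difference of -0.0524 had an exact two-sided permutation p of 0.19 (n = 5 each; adjusted over 4 exon groups 0.317), and without passage 19 it was -0.0294 (exact p = 0.381). In the other media the same difference was 0.00258 in NaCl, -0.0133 in raffinose and 0.0122 in urea. Passage 10, at -0.0983, was also low in control.

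**Figure D4:**
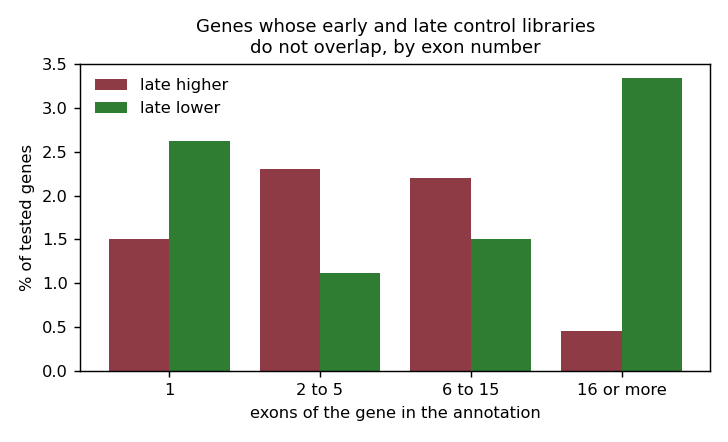
Percent of the tested genes of each exon-number group (horizontal axis) whose early and late control libraries do not overlap (vertical axis, from 0), split into late higher and late lower. Among genes of 16 or more exons 3.34% were lower and 0.457% higher; among genes of 2 to 5 exons 1.12% were lower and 2.3% higher.

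The genes of at least 2-fold change were mostly of low level. Of the 27 genes at least 2-fold higher late with an unadjusted p under 0.05, 10 had 1 exon, 21 had at most 2 exons, and 22 were under 5 CPM. Over all tested genes, 6.59% had 1 exon, 13.6% at most 2 exons and 15.6% a level under 5 CPM. They had the same sign in NaCl in 24 cases, in raffinose in 24 and in urea in 27. Of the 15 genes at least 2-fold lower, 11 had 10 or more exons, with a median of 15 exons, and 13 were under 5 CPM; 46% of all tested genes had 10 or more exons. They had the same sign in NaCl in 11 cases, in raffinose in 10 and in urea in 13. Over all tested genes, 50.8% had a positive change in NaCl, 51.8% in raffinose and 50.6% in urea. Libraries of a passage vary together across media, so the shared signs in both sets are no independent test. By level, the 3036 genes with the highest counts held 366 lower and 225 higher genes at an unadjusted p under 0.05 (19.5% in all, against 17.2% of all tested genes), with 109 lower (3.59%) and 37 higher (1.22%) not overlapping. The next 3035 genes held 261 lower and 358 higher (20.4% in all), and the 3036 below them 195 lower and 352 higher (18%). The 3036 genes with the lowest counts held 139 lower and 192 higher (10.9%). Of all tested genes, 7.91% were lower and 9.28% higher at this p, and 1.91% lower and 1.77% higher did not overlap. The split by level was not tested over libraries. It also overlaps the split by exon number, since 69.7% of the genes with the highest counts had 10 or more exons.

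The mitochondrial genome encodes subunits of the respiratory chain and the RNAs for their translation. Of its 37 annotated genes 30 were tested, and 6 were higher and 3 lower late at an unadjusted p under 0.05, with 0 passing edgeR's adjusted threshold. These are 30% of 30 genes, against 17.2% of all tested genes. Of the 15 genes of 200 bases or more, 5 were higher and 0 lower, and of the 15 shorter genes 1 was higher and 3 were lower. Of all tested genes, 9.28% were higher and 7.91% lower at this p. The direction was not shared by all media. The median log2 fold change of the 30 genes was 0.14 in control, -0.149 in NaCl, 0.165 in raffinose and -0.0389 in urea. The gene at positions 7803 to 8006 was at 364, 337, 390, 481 and 475 CPM early and 584, 737, 550, 629 and 540 CPM late. Its groups did not overlap, with a log2 fold change of 0.57 ± 0.12 (edgeR adjusted p = 0.0773), and it had -0.01 ± 0.18 in NaCl, 0.55 ± 0.21 in raffinose and 0.45 ± 0.17 in urea. It overlaps the next gene, at positions 7964 to 8644, whose log2 fold change was 0.14 ± 0.15.

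Lower late was a short gene at positions 5037 to 5105, with 34, 12.9, 21.6, 21.2 and 20 CPM early and 10.8, 12.5, 12.6, 9.23 and 7.98 CPM late. Early passage 4 nearly reached the late libraries, but the groups did not overlap, with a log2 fold change of -1.06 ± 0.21 (edgeR adjusted p = 0.0768). It had -0.75 ± 0.19 in NaCl, 0.06 ± 0.24 in raffinose and -0.52 ± 0.28 in urea. The whole mitochondrial genome took 4.73 ± 0.677% of reads early and 5.34 ± 0.502% late (SD, n = 5 each; exact two-sided permutation p = 0.151, adjusted over 6 measures 0.508).

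Stretches of the nuclear genome were compared as counts summed over bins. Of 255 bins of 10 Mb, edgeR called 0 (0%), with 46 bins at an unadjusted p under 0.05 (30 higher and 16 lower) and a lowest adjusted p of 0.199. With the most abundant gene of each bin left out, 1 bin was called, on chromosome 10 from 50 to 60 Mb, with a log2 fold change of 0.20 and an edgeR adjusted p of 0.0192. With all its genes that bin had 0.03 ± 0.04 and an adjusted p of 0.679. At an unadjusted p under 0.05, 6 of its 19 tested genes were higher and 1 lower. Of all tested genes, 9.28% were higher and 7.91% lower at that p. Over 39 chromosomes, 0 differed in the median of their genes by the exact permutation test adjusted over chromosomes, and 3 had an unadjusted exact p under 0.05. For chromosome 37, with 143 tested genes, the medians of the late libraries (0.0116 to 0.0575 in log2 CPM) were all above those of the early ones (-0.0584 to 0.0072). That is a difference of 0.0605 with an exact p of 0.00794, the smallest that 5 against 5 libraries allow, and an adjusted p of 0.31. The corresponding differences were 0.044 in NaCl, 0.0242 in raffinose and 0.0404 in urea. The chromosome that stood out depended on the measure. By its share of nuclear reads in control, chromosome 37 overlapped between stages (exact permutation p = 0.246, adjusted 0.458). Chromosomes 12 and 21 did not overlap by that share and were higher late (exact permutation p = 0.00794 each). Their adjusted p of 0.155 was the lowest of the 39 chromosomes.

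Chromosome 34 varied between passages in a way that was shared by the 4 media and was not a division into early and late. It was singled out after the values were seen, so its levels are a description. The median over its 141 tested genes, as a deviation in log2 CPM from the mean of the 12 control libraries, was -0.053, -0.057, 0.055, 0.063 and 0.128 at early passages 1, 4, 5, 7 and 8. It was 0.082, -0.067, -0.081, -0.054 and -0.135 at late passages 13, 14, 16, 17 and 19, and 0.133 and -0.016 at passages 10 and 11. Passages 5, 7, 8, 10 and 13 were thus above the mean, and passages 1, 4, 11, 14, 16, 17 and 19 below it.

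In all 4 media passages 5, 7, 8, 10 and 13 were above 0 and passages 1, 16, 17 and 19 below it. The means over media were 0.112 ± 0.048 at passage 8 and 0.111 ± 0.022 at passage 13 (SD, n = 4 media), against -0.095 ± 0.034 at passage 16 and -0.135 ± 0.034 at passage 19. After removal of the mean of each medium, differences between passages made up 90.1% of the variance of this median over the 48 libraries. The next highest of 39 chromosomes had 74.9%, and the median chromosome 61%. Chromosome 36 had 73.3%, but its passage means covered a wider range, 0.285 against 0.247 for chromosome 34. At control passage 8, 100 of the 141 genes (70.9%) were above their own mean, against 50 (35.5%) at passage 19. The share over all tested genes in these libraries is not given here, so these counts cannot be set against the rest of the genome. Across control early and late libraries the exact permutation test gave a difference of -0.078 and p = 0.183 (n = 5 each), since passages on both sides of the mean fall within each stage.

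The genes nearest the start of the chromosome and the rest shared the pattern only in part. At control passages 5, 7 and 8 the 71 genes nearest its start had medians of 0.09, 0.1 and 0.123 and the other 70 had 0.031, 0.023 and 0.124. At passages 16, 17 and 19 the former had -0.088, -0.092 and -0.134 and the latter -0.046, -0.02 and -0.115. They had opposite signs at control passage 14, with -0.108 and 0.028, and at passage 11, with 0.016 and -0.057. In raffinose, passage 8 had 0.006 and 0.095, and passage 17 had -0.013 and -0.127.

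**Figure D5:**
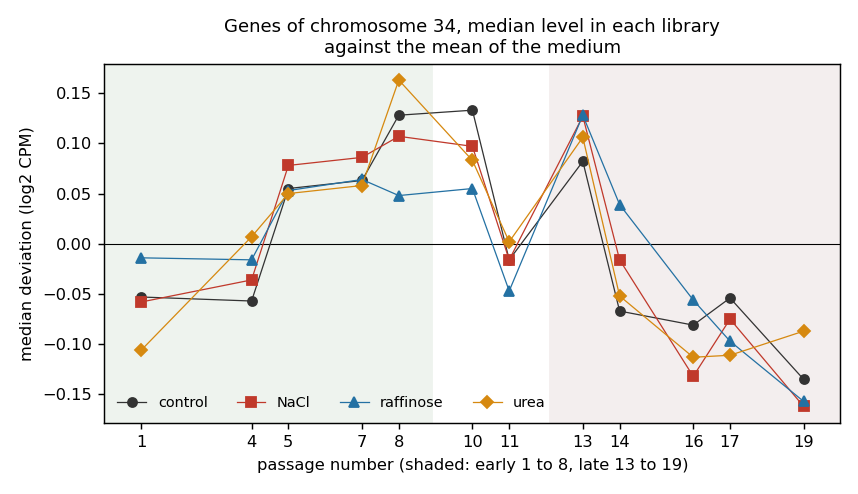
Median level of the 141 tested genes of chromosome 34 in each library, as a deviation in log2 CPM from the mean of its medium (vertical axis), against passage number (horizontal axis); each point is 1 library. In control medium the values run from 0.133 at passage 10 to -0.135 at passage 19, and the 4 media follow each other.

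The late libraries were slightly more spread than the early ones. The median SD of log2 CPM over genes was 0.172 among the early and 0.198 among the late libraries. The late group had the larger SD for 7380 genes and the early group for 4763. Genes are not replicates, and the spread was not tested over libraries. Correlations between libraries ran from 0.9772 to 0.9909 within early and from 0.9777 to 0.9878 within late. Late passages 17 and 19 were the pair of highest chi-square per gene, at 52.9, against 29.4 for the next pair. This value also rises with the number of reads. The division into stages accounted for 18.7% of the variance of log2 CPM over the 10 libraries. Any division into 5 and 5 libraries takes up part of the variance, and no other division was compared. The number of genes at 1 CPM or more was 12056 ± 105 early and 12047 ± 115 late (SD, n = 5 each; exact two-sided permutation p = 0.841, adjusted 0.849).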

How the data were processed

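The authors deposited raw read counts per gene for 48 single-read libraries of polyadenylated RNA (TruSeq RNA kit, version 2). Per the submitters' processing notes CASAVA, HISAT2 2.0.5 and featureCounts 1.5.1 were used. Per the file headers, counting used exons grouped by gene and ignored strand, on Ensembl release 87 of CanFam3.1. The meaning of an added number in the column names of passage 10 is not given in the sources used here.

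The 10 control libraries were fitted with edgeR 4.0.16 in R 4.3.3 (filterByExpr, TMM factors of 0.968 to 1.02, glmQLFit, glmQLFTest, Benjamini-Hochberg over 12143 genes, threshold 0.05). The same genes were tested in each other medium, and the interactions in 1 fit of 40 libraries. CPM use TMM-scaled totals; the SE is the log2 fold change over the square root of F. Library measures, chromosome shares of nuclear reads and medians (log2 of CPM plus 0.5) were compared by exact permutation over all 252 assignments (SciPy 1.17.1). Alternatives were RLE factors, library totals, other filters, DESeq2 1.42.0, limma-voom 3.58.1, glmTreat, passage as a linear term, summed or thinned counts, and each library left out. Fits were tested on simulated data.

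Passage is nested in stage, so a replicate block entered the interactions only; the labels give the same passage to 1 library of each medium, and 57 of 60 such pairs correlated over 0.1. Every pair of libraries of a stage differed by more than sampling noise (lowest chi-square per gene 8.33). A gene at 1 CPM had 6.082 to 16.06 reads, and 0 reads allow up to 3, counting error only. The members, lists and tests were chosen with earlier results of these data known. The named genes are the 2 of smallest p in each direction, since none passed, and 3 known from earlier results. Prepared symbol lists were not applied, because 0 identifiers had a symbol. Groups by exon number, chromosome and overlap of libraries were chosen after the data were seen.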

Additional observations from a re-analysis of the deposited data

Results flagged for a closer look

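In 2 of 34 groups of 5 libraries examined, 1 library stood apart from the others. The groups covered the named genes, the library measures and the exon groups at each stage, and both cases were among the named genes. Chance sets a library apart in about 1 in 20 groups. The gene of 30 exons on chromosome 27 was at 58.8 CPM at early passage 4 in control medium, against 12.6 to 21.4 CPM in the other early libraries. The gene of 52 exons on chromosome 27 was at 10.9 CPM at early passage 1 in control medium, against 1.35 to 3.82 CPM in the other early libraries.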

How the results depend on the processing

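The count of genes called in control medium by edgeR was 0 with RLE factors, a mean of at least 5 CPM, glmTreat at a fold of 1.5, the 3 solute libraries summed, thinned libraries and without passages 1 and 19, and 0 by limma-voom. It was 1 with library totals only, 83 with no filter on low counts (67 higher, 16 lower; 20989 genes tested), 9 with the spread of 40 libraries, 14 with passage as a linear term over 12 libraries, 1 with the 4 libraries of a passage summed, 172 at an adjusted p under 0.10 and 356 by DESeq2. Leaving out each library in turn gave 0 to 45 in control, 0 to 1 in NaCl (1 without late passage 13), 0 to 2 in raffinose (2 without late passage 13) and 0 throughout in urea. With library totals only, 65% of the genes at an unadjusted p under 0.05 were higher late, against 54%. Without the most abundant gene of each bin, 1 of 251 bins was called (chromosome 10, 50 to 60 Mb). Without the 20 most abundant genes, 1 library measure was called, the share of the 100 most abundant genes (difference -0.665 percentage points, adjusted exact p = 0.0476). The gene of 52 exons on chromosome 27 changed sign to 0.00817 without passages 1 and 19. The other named genes kept their sign in all alternatives run. Outside the linear term, ENSCAFG00000032544 ran from 1.72 to 2.06 and was called in 7 of 21. Of 22 alternatives, ENSCAFG00000015624 was called in 4 (-0.529 to -0.25), ENSCAFG00000018870 in 3 (0.168 to 0.571) and ENSCAFG00000019810 in 3 (-0.463 to -0.0687), each smallest with the 3 solute libraries summed. DESeq2 gave these 3 an adjusted p of 0.000188, 0.000188 and 0.000566. The gene of 26 exons on chromosome 3 was called in 1 of 22 (with no filter, -1.16) and also by the linear term, and the gene of 30 exons on chromosome 27 in 0. With passage as a replicate block the interactions still had 0 calls. Except where fewer libraries or genes enter by construction, the cause was not tested. At 5 libraries a stage and a common coefficient of variation of 14.5%, small changes of genes near 1 CPM, with 6.082 to 16.06 reads, were not detectable.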
